A study of Mus musculus with 4 samples.

Results

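Naive pluripotency genes are the transcription factors and marker genes of the preimplantation epiblast and of embryonic stem cells, and 10 of them were described here in primed epiblast stem cells (EpiSCs). They were chosen by name: Klf2, Klf4, Klf5, Zfp42, Esrrb, Tfcp2l1, Tbx3, Nr0b1, Nr5a2 and Dppa3. All 10 are among the 22686 genes of the table, and 0 are absent. EpiSCs are pluripotent cells of the postimplantation epiblast, labelled as female and as taken at embryonic day 6.5.

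The libraries, 1 for each combined genotype, were Smchd1 MD1/MD1 with XistdeltaA/+, Smchd1 +/+ with XistdeltaA/+, Smchd1 MD1/MD1 with Xist1lox/+ and Smchd1 +/+ with Xist1lox/+. Every library therefore carried 1 of 2 Xist mutations on 1 allele, the +/+ controls included, and there were no replicates. Smchd1 encodes a chromatin protein of the inactive X chromosome, and Xist the RNA that coats that chromosome. The labels give a cross of C57BL6/J with F1 animals of JF1 and C57BL6/J. Reads that cover a strain variant could be assigned to a parent, and a region where both parents gave C57BL6/J alleles shows maternal-type reads alone.

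Allele-assigned reads summed to between 7301034 and 8008500 per library. Smchd1 was at 6.68 and 5.98 FPKM in the MD1/MD1 libraries, against 27.0 and 20.9 FPKM in the +/+ libraries, each with XistdeltaA/+ and then Xist1lox/+ (limma log2 ratio -1.76, adjusted p = 0.173). The MD1/MD1 XistdeltaA/+ library was the highest, and the +/+ XistdeltaA/+ library the lowest, in summed macrophage genes and in summed fibroblast genes. Summed over 13 macrophage genes, FPKM was 970.3 in MD1/MD1 XistdeltaA/+ against 24.3 in +/+ XistdeltaA/+, and 313 in MD1/MD1 Xist1lox/+ against 344 in +/+ Xist1lox/+. Of these genes Emr1, Tyrobp, C1qa, C1qb and C1qc were listed at 0 in +/+ XistdeltaA/+ and lay between 2.38 and 43.0 FPKM elsewhere, and Lyz2 was at 799 against 0.384 and at 247 against 274 FPKM in the same pairs. Cd68 made up most of the sum in +/+ XistdeltaA/+, at 34.6 against 21.7 FPKM and at 18.1 against 19.3, and Aif1 was highest in that library, at 0.450. Summed over 12 fibroblast genes, which mark feeder cells, FPKM was 421 against 88.8 and 162 against 155 in the same pairs. No fibroblast gene was at 0 in any library. Without S100a4 the sums were 221 against 81.9 and 97.3 against 97.5. The order did not hold for every gene. Postn was highest in +/+ XistdeltaA/+, at 2.03 FPKM. Dcn was at 7.77 there, above 5.70 in MD1/MD1 Xist1lox/+ and 4.49 in +/+ Xist1lox/+. In bulk samples fewer cells of a type and less RNA per cell cannot be told apart.

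In the mouse, the naive state is held by a network in which LIF acts through STAT3 on Klf4 and Tfcp2l1, while Esrrb, Tbx3, Klf2 and Klf5 act beside them to keep Pou5f1, Sox2 and Nanog on. Cells that pass to the primed state lose most of this network and keep Pou5f1 and Sox2, while Fgf5, Otx2 and Dnmt3b come up. Zfp42, also called Rex1, and Dppa3, also called Stella, are used as markers of the naive state.

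Promoter sequences show a feature of the members that the choice by name did not use. RefSeq promoters (build GRCm38.p6, from 250 bases before to 50 after the start of a gene, read along the gene's strand) matched 7 of the 10 members, and Klf5, Tbx3 and Dppa3 had none. The dinucleotide CG, which can be methylated, is in capitals. Klf2 and Klf4 are shown because their level was the highest of the members, Zfp42 because it holds an octamer, and Nr5a2 because it is at the low end in CG and in level.
Klf4, chr4:55532426-55532725, minus strand: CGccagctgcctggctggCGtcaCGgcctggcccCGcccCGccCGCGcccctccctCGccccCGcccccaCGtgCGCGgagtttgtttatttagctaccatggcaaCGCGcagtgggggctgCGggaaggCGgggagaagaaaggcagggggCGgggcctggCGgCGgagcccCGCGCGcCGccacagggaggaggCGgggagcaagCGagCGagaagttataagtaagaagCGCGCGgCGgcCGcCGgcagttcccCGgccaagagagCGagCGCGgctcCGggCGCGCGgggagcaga
Klf2, chr8:72318812-72319111, plus strand: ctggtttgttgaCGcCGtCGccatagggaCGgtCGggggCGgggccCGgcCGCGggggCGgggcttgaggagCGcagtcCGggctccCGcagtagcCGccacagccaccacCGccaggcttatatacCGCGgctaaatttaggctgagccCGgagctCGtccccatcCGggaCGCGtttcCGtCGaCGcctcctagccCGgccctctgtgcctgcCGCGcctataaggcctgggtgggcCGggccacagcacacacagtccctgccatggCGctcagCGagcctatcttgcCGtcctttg
Zfp42, chr8:43306960-43307259, minus strand: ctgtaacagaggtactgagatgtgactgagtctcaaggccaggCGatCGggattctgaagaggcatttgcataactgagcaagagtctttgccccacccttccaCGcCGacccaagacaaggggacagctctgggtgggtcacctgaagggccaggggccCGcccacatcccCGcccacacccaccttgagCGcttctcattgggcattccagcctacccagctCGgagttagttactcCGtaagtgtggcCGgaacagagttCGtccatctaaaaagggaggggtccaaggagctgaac
Nr5a2, first of 2 promoters, chr1:136960399-136960698, minus strand: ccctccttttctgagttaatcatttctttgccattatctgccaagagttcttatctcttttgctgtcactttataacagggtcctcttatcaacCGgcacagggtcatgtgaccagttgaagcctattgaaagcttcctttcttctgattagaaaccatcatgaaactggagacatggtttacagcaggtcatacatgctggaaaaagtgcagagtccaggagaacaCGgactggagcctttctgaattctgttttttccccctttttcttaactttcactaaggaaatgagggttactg
Klf4 has 40 CG in these 300 bases and Klf2 has 32, and 96.1% and 90.5% of all 32851 promoters have fewer. The median over all promoters is 7 CG, and 94.6% hold at least 1. Tfcp2l1 has 21 CG, Nr0b1 14, Zfp42 11 and both promoters of Esrrb 7 each, while the promoters of Nr5a2 have 2 and 7. The octamer ATGCAAAT, the motif bound by Oct4, was searched on both strands. It was found in Zfp42 alone of the 7 members, on the opposite strand with its leftmost base at position -186 from the start, and 1.74% of all promoters hold it. In capitals within its surroundings it reads ctgaagaggcATTTGCATaactgagcaa. A match is a description of these letters and not a binding site.

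Klf2, Klf4 and Klf5 were the members with a mean of at least 1 FPKM, and the other 7 were below it. FPKM counts fragments per length of transcript and per depth of the library, so it compares levels between genes per length. All 3 genes encode zinc finger factors of the Krüppel-like family that keep embryonic stem cells undifferentiated.

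Klf2 (mm9, chromosome 8, 74842961 to 74845553) was at 30.8 FPKM in MD1/MD1 XistdeltaA/+ and 31.4 in +/+ XistdeltaA/+, and at 39.8 in MD1/MD1 Xist1lox/+ and 50.6 in +/+ Xist1lox/+. Both Xist1lox/+ libraries were higher than both XistdeltaA/+ libraries. Its mean of 38.1 FPKM was higher than that of 89.6% of all genes. Klf4 (chromosome 4, 55540009 to 55545347) was at 32.4 and 24.2 FPKM in the XistdeltaA/+ pair, MD1/MD1 first, and at 33.0 and 34.8 in the Xist1lox/+ pair. The +/+ XistdeltaA/+ library was the lowest, and the other 3 lay close together. Klf5 (chromosome 14, 99697910 to 99712628) was at 11.6 FPKM in MD1/MD1 XistdeltaA/+ and 4.56 in +/+ XistdeltaA/+, and at 6.85 in MD1/MD1 Xist1lox/+ and 8.33 in +/+ Xist1lox/+. It spread 2.56-fold between the highest and the lowest library, against 1.64-fold for Klf2 and 1.44-fold for Klf4.

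The plot of FPKM by library shows the step between these genes and the rest. In the order of mean level, Klf2 and Klf4 overlapped in their ranges over the 4 libraries. Klf5 lay below both and above Zfp42 with no overlap. From Zfp42 down through Tfcp2l1, Esrrb, Nr0b1, Tbx3 and Nr5a2 to Dppa3 each range met that of the next gene.

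**Figure D1:**
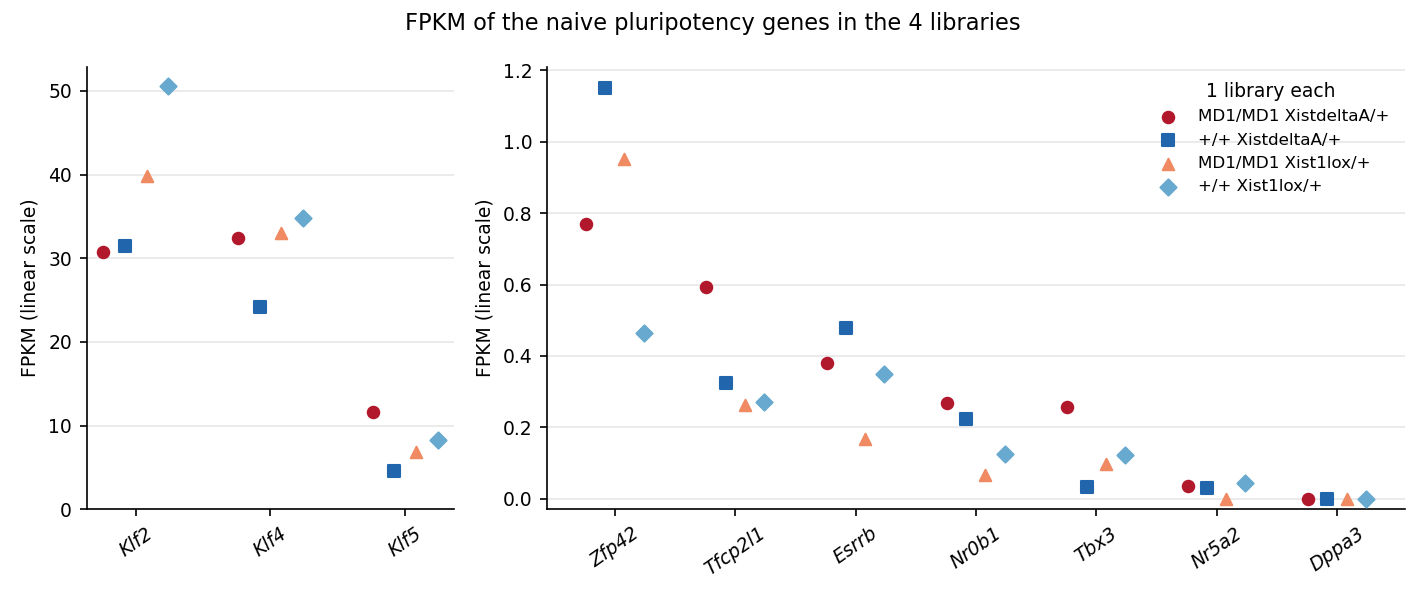
FPKM (linear axes) of the 10 naive genes, ordered by mean, with 1 point for each of the 4 libraries and a separate axis for the 7 genes below a mean of 1 FPKM. Klf2 and Klf4 lie between 24.2 and 50.6 FPKM, Klf5 between 4.56 and 11.6, and no other member exceeds 1.15.

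Zfp42, a zinc finger gene of chromosome 8 (44380421 to 44392363), was at 0.770 FPKM in MD1/MD1 XistdeltaA/+ and 1.15 in +/+ XistdeltaA/+, and at 0.951 in MD1/MD1 Xist1lox/+ and 0.463 in +/+ Xist1lox/+. The order of MD1/MD1 and +/+ was opposite in the 2 pairs, and the libraries overlapped. Tfcp2l1 (chromosome 1, 120524522 to 120581745), a target of STAT3, was at 0.593 and 0.325 FPKM in the XistdeltaA/+ pair, MD1/MD1 first, and at 0.262 and 0.272 in the Xist1lox/+ pair. Here 1 library, MD1/MD1 XistdeltaA/+, was above the other 3. Esrrb, an orphan nuclear receptor of chromosome 12 (87702067 to 87862578), was at 0.379 in MD1/MD1 XistdeltaA/+ and 0.480 in +/+ XistdeltaA/+, and at 0.167 in MD1/MD1 Xist1lox/+ and 0.348 in +/+ Xist1lox/+. The +/+ library was the higher one in both pairs, with FPKM ratios of 0.791 and 0.479 of MD1/MD1 over +/+.

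The level of Nr0b1, the X-linked member that encodes the nuclear receptor Dax1 (83437114 to 83441283), was 0.268 FPKM in MD1/MD1 XistdeltaA/+ and 0.222 in +/+ XistdeltaA/+, and 0.0670 in MD1/MD1 Xist1lox/+ and 0.124 in +/+ Xist1lox/+. Tbx3, a T-box factor of chromosome 5 (120120871 to 120134733), was at 0.256 and 0.0341 FPKM in the XistdeltaA/+ pair, MD1/MD1 first, and at 0.0962 and 0.122 in the Xist1lox/+ pair. Both genes were highest in MD1/MD1 XistdeltaA/+. Nr5a2, a nuclear receptor that can activate Pou5f1 (chromosome 1, 138740161 to 138857025), was at 0.0345 and 0.0294 FPKM with XistdeltaA/+, MD1/MD1 first, and listed at 0 in MD1/MD1 Xist1lox/+ against 0.0431 in +/+ Xist1lox/+. Dppa3 (chromosome 6, 122576442 to 122580289) had neither FPKM nor an allele-assigned read in any library, although Nanog, 77.2 kb away, was at 56.1 to 94.2 FPKM.

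Among the low members Nr0b1, Nr5a2 and Tbx3 rest on few reads, with at most 12 allele-assigned reads in a library. Tfcp2l1 had 54 to 145 and Esrrb 15 to 45. FPKM values under 0.05 moved in steps, and 1 fragment was worth 1.07, 1.13 and 1.04 times as much in +/+ XistdeltaA/+, MD1/MD1 Xist1lox/+ and +/+ Xist1lox/+ as in MD1/MD1 XistdeltaA/+. After division by this worth, 4 members gave whole multiples of 1 step within 0.03, with up to 50 steps tried for the lowest value. The largest deviation was 0.023 for Zfp42, against 0.0080 for Tbx3, 0.0024 for Nr0b1 and 0.00095 for Nr5a2. The multiples of Zfp42 are therefore the least certain. The multiples were 9 and 7 for Nr0b1 in the XistdeltaA/+ pair, MD1/MD1 first, and 2 and 4 in the Xist1lox/+ pair. In the same order they were 5, 4, 0 and 6 for Nr5a2, 24, 3, 8 and 11 for Tbx3, and 52, 73, 57 and 30 for Zfp42. These are the smallest whole numbers in the right ratio, so true fragment counts may be a multiple of them.

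The median of the members' mean FPKM was 0.353, with 3 of 10 at a mean of at least 1 FPKM, beside a median of 1.10 over all 22686 genes, of which 50.6% had that mean. Tfcp2l1 and Esrrb, around the members' median, were above 43.2% and 42.8% of all genes. Of 20 further naive genes 8 reached it, with a median of 0.634, and of 10 genes of the LIF and STAT3 pathway 9 did, with a median of 9.88. Of 20 primed and core epiblast genes 18 reached it, with a median of 48.0. This list mixes core genes such as Pou5f1 and Sox2 with markers of the primed state. Most of its genes were high where most naive members were low. Cer1 and T did not reach a mean of 1 FPKM, at 0.0340 and 0.318. Pou5f1, the gene of Oct4, was at 856 and 551 FPKM in the XistdeltaA/+ pair and at 873 and 984 in the Xist1lox/+ pair, MD1/MD1 first each time. Fgf5, the growth factor gene of the primed epiblast, was named after its values were seen and was at 41.8 and 35.7, then at 25.6 and 26.0, in the same order. Lefty1, which encodes an inhibitor of Nodal signalling, was at 320 and 472 FPKM in the XistdeltaA/+ pair and at 676 and 771 in the Xist1lox/+ pair, MD1/MD1 first. Both Xist1lox/+ libraries were the higher ones. Utf1, a chromatin factor gene of pluripotent cells, lay between 458 and 510 FPKM, and Cldn6, a claudin gene of the epiblast, between 252 and 341. Of the 18 genes, 3 were at least 2-fold higher in MD1/MD1 with XistdeltaA/+ and 1 with Xist1lox/+, and 0 lower. Of all 11471 genes with a mean of at least 1 FPKM, 3.91% and 0.445% were higher in these pairs, and 1.82% and 0.375% lower. Those of the list that were higher were named after their values were seen. Sox2, a core pluripotency factor, was at 92.8 against 30.5 FPKM with XistdeltaA/+ and at 65.9 against 91.4 with Xist1lox/+. Dnmt3b, a DNA methyltransferase gene, was at 320 against 144 and at 268 against 242, and Etv4, a target of FGF signalling, at 9.87 against 2.22 and at 7.95 against 7.17. Lefty2 was at 71.1 against 84.1 with XistdeltaA/+ and at 120 against 14.9 with Xist1lox/+, where the +/+ library was the lowest of the 4.

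**Figure D2:**
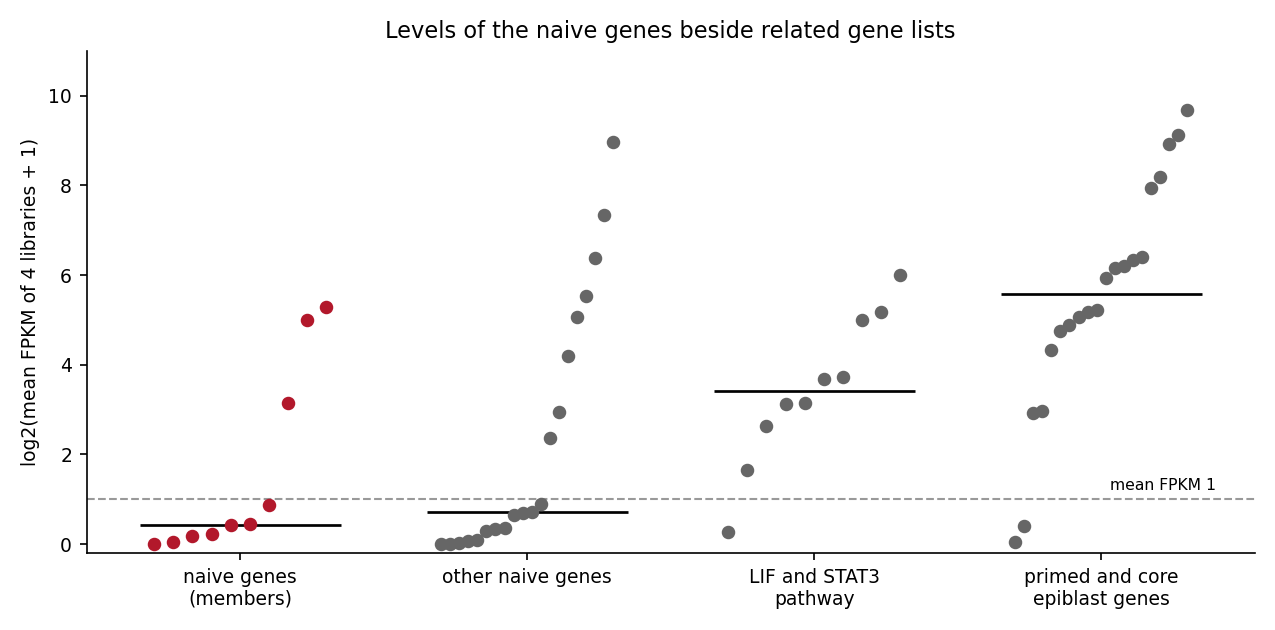
Mean FPKM of the 4 libraries as log2(mean FPKM + 1) for each gene of 4 lists, with bars at the medians and a dashed line at a mean of 1 FPKM. Among the naive members 3 of 10 lie above the line, against 18 of 20 primed and core epiblast genes.

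The first comparison set MD1/MD1 against +/+ cells. None of the 3 members tested passed limma over both Xist backgrounds (2 libraries against 2), in which 4 of 11471 genes, 0.0349%, passed at an adjusted p under 0.05. The log2 ratio of FPKM + 1 was -0.18 ± 0.17 (SE) for Klf2 (limma adjusted p = 0.937), 0.17 ± 0.19 for Klf4 (limma adjusted p = 0.941) and 0.47 ± 0.36 for Klf5 (limma adjusted p = 0.937). The other 7 members were below the filter and have no p from this fit.

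Within pairs there is 1 library against 1, so differences have no replicate check. In the XistdeltaA/+ pair Klf5 was 1.19 higher on the log2 scale in MD1/MD1, Klf4 0.41 higher, and Klf2 stood at -0.029. Klf5 was the 1 of 3 members at least 2-fold higher, as were 3.91% of all genes tested, and 0 of the 3 were at least 2-fold lower, as were 1.82%, or 5.73% in either direction. In the Xist1lox/+ pair the ratios were -0.25 for Klf5, -0.074 for Klf4 and -0.34 for Klf2, with 0 of these 3 members at least 2-fold higher or lower in FPKM + 1, against 0.445% of all genes higher, 0.375% lower and 0.819% either way. The median of the 3 members was 0.41 in the XistdeltaA/+ pair and -0.25 in the Xist1lox/+ pair, beside -0.048 and 0.0040 over all genes tested. The plot of ratios shows Klf5 outside the range that holds 90% of genes in the first pair, and the ratios of Klf4 and Klf5 on opposite sides of 0 in the 2 pairs. Zfp42, below the filter, was at -0.28 in the XistdeltaA/+ pair and at 0.42 in the Xist1lox/+ pair, where the 95th percentile of all genes tested is 0.36. In plain FPKM, MD1/MD1 over +/+, the members below the filter had ratios from 0.668 for Zfp42 to 7.51 for Tbx3 with XistdeltaA/+, and from 0.479 for Esrrb to 2.05 for Zfp42 with Xist1lox/+, where both groups were above 0.

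**Figure D3:**
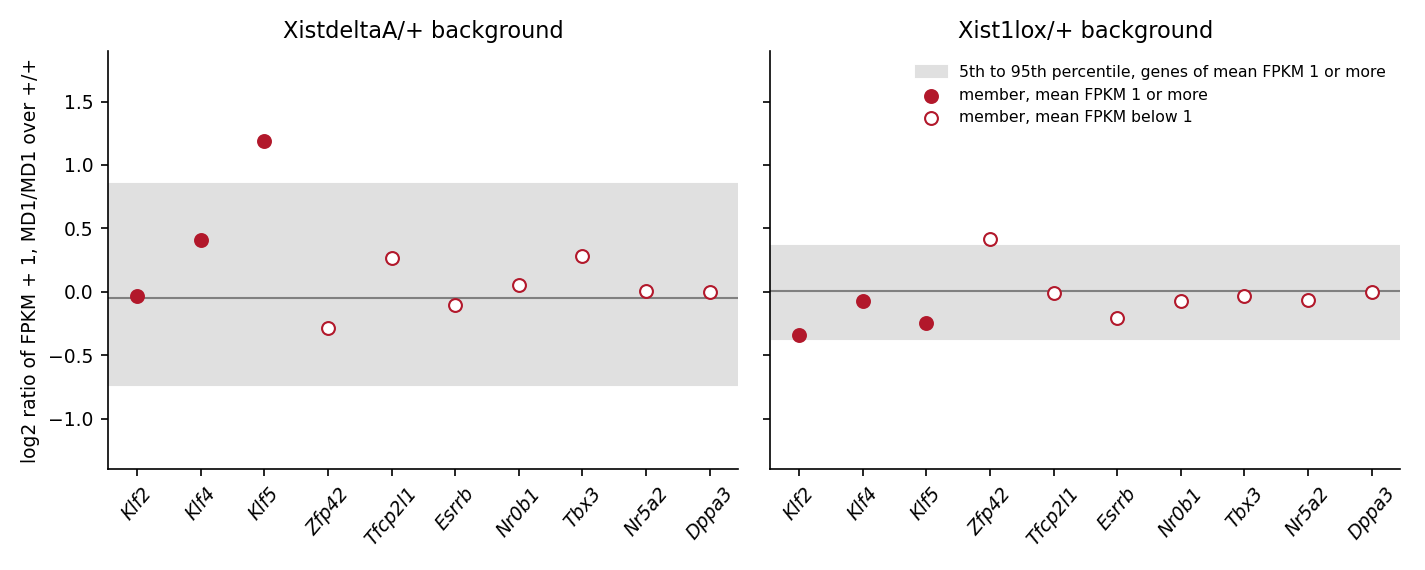
Log2 ratio of FPKM + 1, MD1/MD1 over +/+, for each member in the XistdeltaA/+ pair (left) and the Xist1lox/+ pair (right), with the grey band from the 5th to the 95th percentile of 11471 genes and a line at their median. Klf5 is at 1.19 on the left and -0.25 on the right, and open points are members below a mean of 1 FPKM.

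Markers of other cells moved with some members. Klf4 and Klf5 are also made by fibroblasts, and Tbx3 by several tissues. Klf5 and Tbx3 were highest in MD1/MD1 XistdeltaA/+ and lowest in +/+ XistdeltaA/+, as were the summed macrophage and fibroblast genes. This order is not particular to markers of other cells. Among epiblast genes with a mean of at least 1 FPKM, Sox2, Dnmt3b, Etv4, Pou3f1 and Etv5 had the same highest and lowest libraries. Stat3 did as well. Otx2, Sox3 and Zic2 of the epiblast list had the reverse. All of these genes were named after their values were seen. Without S100a4, which macrophages make as well, the fibroblast sum was 221 FPKM in MD1/MD1 XistdeltaA/+ against 81.9 in +/+ XistdeltaA/+, and 97.3 against 97.5 in the Xist1lox/+ pair. Of the 12 fibroblast genes 8 were at least 2-fold higher in MD1/MD1 with XistdeltaA/+ and 0 with Xist1lox/+. Of 11 macrophage genes with a mean of at least 1 FPKM 10 and 0 were. Among all genes tested 3.91% and 0.445% were. Klf2, which macrophages also express, differed by -0.029 on the log2 scale between the libraries with the highest and the lowest macrophage sum. Those libraries, 1 against 1, also differed in Smchd1 genotype and in the alleles carried around Klf2. The part of macrophages and fibroblasts in the values of Klf2, Klf4, Klf5 and Tbx3 was not tested.

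**Figure D4:**
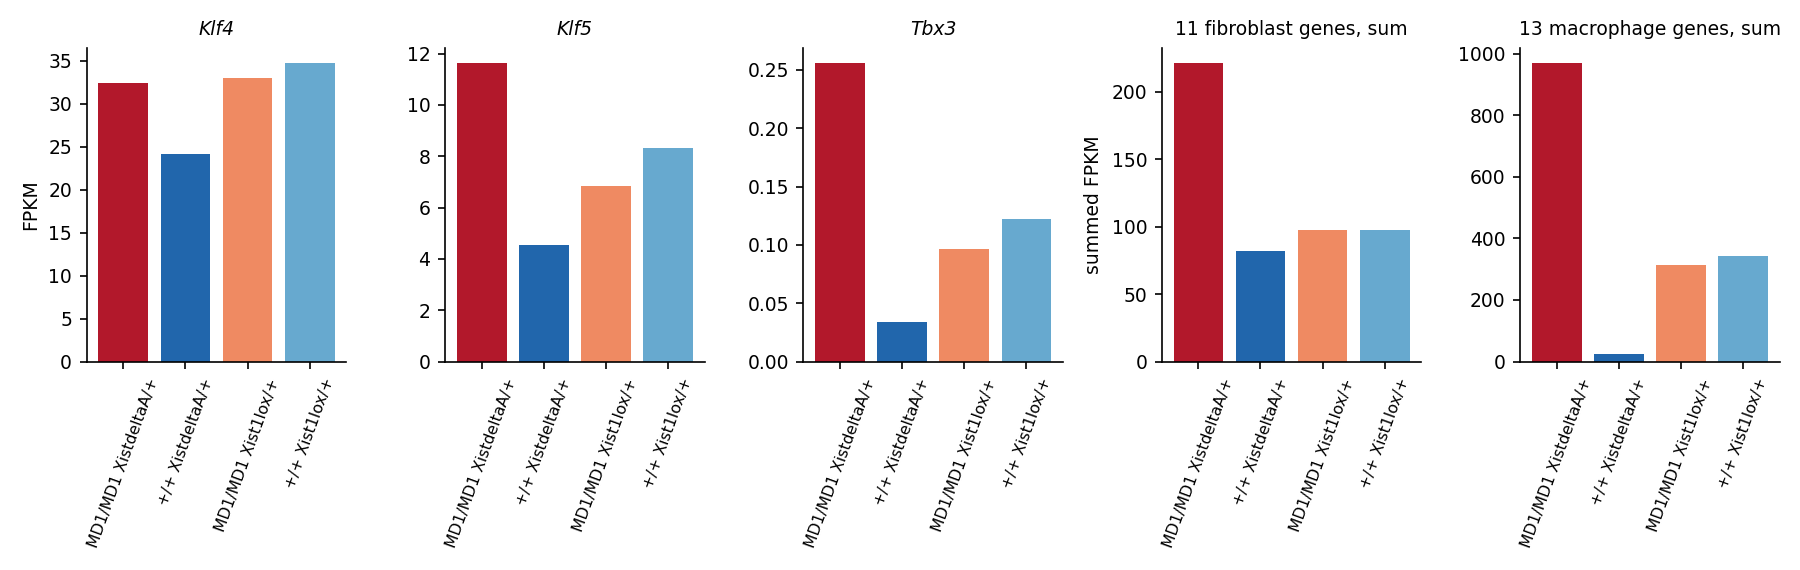
FPKM of Klf4, Klf5 and Tbx3 in the 4 libraries, beside the summed FPKM of 11 fibroblast genes (S100a4 left out) and of 13 macrophage genes; bars start at 0 and each is 1 library. Klf5, Tbx3 and both sums are highest in MD1/MD1 XistdeltaA/+ and lowest in +/+ XistdeltaA/+.

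The second comparison set Xist1lox/+ against XistdeltaA/+ cells. Klf2 had 39.8 FPKM in MD1/MD1 Xist1lox/+ against 30.8 in MD1/MD1 XistdeltaA/+, and 50.6 in +/+ Xist1lox/+ against 31.4 in +/+ XistdeltaA/+. Its log2 ratio was 0.52 ± 0.17 (SE), with an unadjusted p of 0.0279 and an adjusted p of 0.927 from limma. Of 11471 genes 0, or 0.0%, passed in this comparison with limma, and 368 had an unadjusted p under 0.05. With edgeR on allele-assigned reads 0 of 11617 genes were called. Klf2, Klf4 and Klf5 had 0 such reads, so edgeR did not test them. Klf4 had a log2 ratio of 0.27 ± 0.19 (limma adjusted p = 0.927) and Klf5 of 0.030 ± 0.36 (limma adjusted p = 0.992). Klf5 was lower by the ratio in MD1/MD1 cells (-0.69) and higher in +/+ cells (0.75). Of the 3 members above the filter 0 were 2-fold different in FPKM + 1 in either genotype, where 2.49% of genes tested were in MD1/MD1 and 3.14% in +/+ libraries. Members below it had wider ratios of plain FPKM, Xist1lox/+ over XistdeltaA/+, which have no test and rest on low levels. In MD1/MD1 libraries the ratio was 0.250 for Nr0b1, 0.376 for Tbx3, 0.440 for Esrrb and 0.442 for Tfcp2l1. In +/+ libraries it was 3.59 for Tbx3 and 0.402 for Zfp42, and between 0.559 and 1.47 for the other 4 that were above 0.

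Some genes had a profile over the 4 libraries close to that of a member. Likeness was the Euclidean distance of log2(FPKM + 1) values centred on their mean, over 4 libraries and 11471 genes. Nearest to Klf2 was Dnajc30 at 0.0457, then Hist1h2ai and Lars. Nearest to Klf4 were Slc4a1ap, Syne4 and Ercc1, all within 0.0267, and nearest to Klf5 were Ehbp1l1, Emilin1 and Slc7a7 at 0.0510 to 0.0792. With 4 points a close profile is common and is a description alone.

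Genes next to the members in the naive network were followed as lists. Of the 20 further naive genes 8 had a mean of at least 1 FPKM and were tested, and 12 were not tested. Of the 8, 0 passed limma in either comparison. Among all genes tested 0.0349% passed for Smchd1 genotype and 0.0% for the Xist mutation. By the size rule 1 of the 8 with a mean of at least 1 FPKM was 2-fold higher with XistdeltaA/+, as were 3.91% of all genes tested. Another 1 was lower, as were 1.82%, and 0 differed with Xist1lox/+, where 0.819% did. These were Spp1, which encodes osteopontin and is also a macrophage product, at 1195 FPKM in MD1/MD1 XistdeltaA/+ against 90.5 in +/+ XistdeltaA/+, and Fbxo15, an F-box gene, at 2.22 against 7.31; Fbxo15 was named after its values were seen. Nanog, the homeobox factor, was at 56.1 against 87.1 FPKM in the XistdeltaA/+ pair and at 94.2 against 90.04 in the Xist1lox/+ pair. Cdh1, the gene of E-cadherin, was at 187 against 168 and at 170 against 113 in the same pairs. Sall4, a zinc finger factor of the core network, was at 43.2 against 38.4 and at 49.1 against 51.7.

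Of the LIF and STAT3 pathway 0 of 9 genes with a mean of at least 1 FPKM passed limma. The shares over all genes tested were 0.0349% for Smchd1 genotype and 0.0% for the Xist mutation. Stat3, the transcription factor activated by LIF and named after its values were seen, was at 11.1 FPKM in MD1/MD1 XistdeltaA/+ against 4.61 in +/+ XistdeltaA/+, and at 6.86 in MD1/MD1 Xist1lox/+ against 8.76 in +/+ Xist1lox/+. It was the 1 gene of the list past 2-fold in a pair, with XistdeltaA/+, where 5.73% of all genes tested were. Pim1 and Pim3, kinase genes that STAT3 can induce, were at 48.2 against 34.0 and at 68.4 against 61.1 FPKM in the XistdeltaA/+ pair, MD1/MD1 first, and at 32.4 against 26.1 and at 64.1 against 60.5 in the Xist1lox/+ pair. Ptpn11, a phosphatase gene, was at 39.1 against 27.9 and at 30.1 against 27.6 in the same pairs, and Jak1, a kinase gene of the receptor, at 13.8 against 14.8 and at 9.95 against 10.3. The median log2 ratio of the list was 0.16 in the XistdeltaA/+ pair and 0.083 in the Xist1lox/+ pair, and that of 18 primed and core epiblast genes was 0.14 and 0.14.

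The split between parental alleles could be read for few members. Klf2, Klf4, Klf5, Zfp42 and Dppa3 had 0 allele-assigned reads in all 4 libraries, so that the members with the highest level carry no allele information. The other 5 had reads. Nr0b1 had 8 and 8 reads in the XistdeltaA/+ pair, MD1/MD1 first, and 2 and 5 in the Xist1lox/+ pair, and Nr5a2 had 2, 4, 0 and 1. No paternal share is given below 10 reads, so none was given for Nr0b1 on the X or for Nr5a2. Tbx3 had a share in the MD1/MD1 libraries, 8.33% (0.211 to 38.5) in each, from 1 paternal read of 12. The ranges in parentheses are 95% intervals by the exact Clopper-Pearson method, and counting error is all they cover.

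Esrrb reads were mostly paternal in every library. The share was 88.4% (74.9 to 96.1) of 43 reads in MD1/MD1 XistdeltaA/+ and 77.8% (62.9 to 88.8) of 45 in +/+ XistdeltaA/+. It was 100% (78.2 to 100) of 15 reads in MD1/MD1 Xist1lox/+ and 79.4% (62.1 to 91.3) of 34 in +/+ Xist1lox/+. The lower bounds all lie above the medians of the other genes of its 10 Mb window, which were 47.3%, 49.8%, 48.0% and 49.9% in the same order, over 79 to 84 genes. The nearest gene with reads on the left, Gpatch2l at 69.7 kb, had shares of 48.8% to 55.0%, and the nearest on the right, Vash1 at 157 kb, of 18.5% to 32.0%. Of 9883 autosomal genes with at least 15 reads in all libraries, 42, or 0.425%, were at 75% or more in all 4, a count made after the share of Esrrb was seen. The parent and the strain of the allele cannot be told apart in this cross. Between MD1/MD1 and +/+ the share differed by 10.6 points with XistdeltaA/+ (Fisher's exact test, two-sided, adjusted p = 0.430), in which 37.2% of 10173 genes passed.

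Tfcp2l1 followed its region. Its paternal share was 55.2% (46.7 to 63.4) of 145 reads in MD1/MD1 XistdeltaA/+ and 42.0% (31.1 to 53.5) of 81 in +/+ XistdeltaA/+, a difference of 13.2 points that did not pass Fisher's exact test (adjusted p = 0.156). In MD1/MD1 Xist1lox/+ it was 64.8% (50.6 to 77.3) of 54 reads. In +/+ Xist1lox/+ it had 0 paternal reads of 70, for which the exact interval reaches 5.13% (3 reads of 70 would be 4.29%). That difference passed Fisher's exact test (adjusted p = 8.38e-17), as did 36.7% of 10270 genes, and it compares these libraries, not the conditions. The median of the other genes of its window was 52.7% in MD1/MD1 Xist1lox/+ and 0% in +/+ Xist1lox/+, and Clasp1, 18.5 kb away, was at 53.0% and 0.105%. The total FPKM of Tfcp2l1 was 0.262 and 0.272 in this pair.

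**Figure D5:**
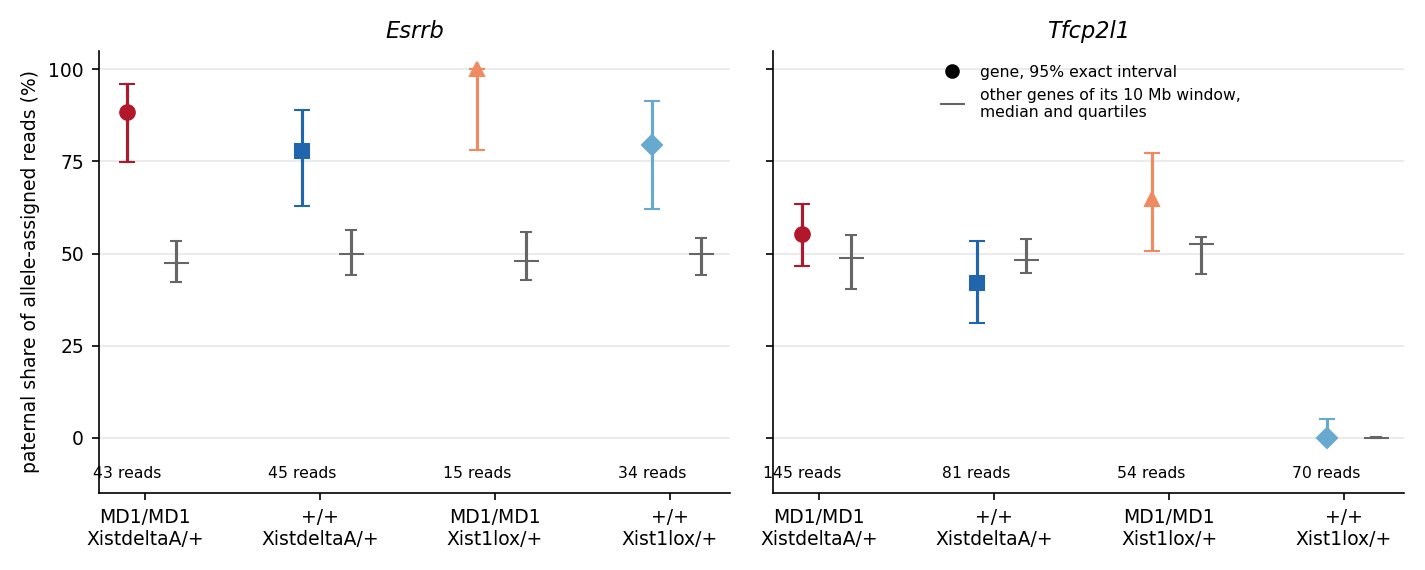
Paternal share (%) of allele-assigned reads of Esrrb and Tfcp2l1 in the 4 libraries with exact 95% intervals, beside the median and quartiles of the other genes of the same 10 Mb window (grey). Esrrb lies at 77.8% to 100% against window medians of 47.3% to 49.9%, and Tfcp2l1 falls to 0% in +/+ Xist1lox/+, where the window median is 0%.

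The alleles carried around the other members differed between the libraries. Around Klf2 and around Zfp42, both on chromosome 8, median paternal shares of the other genes in the window ranged over 48.4% to 49.4% with MD1/MD1. With +/+ they were at most 0.164% in both libraries, that is, reads there were nearly all maternal-type. An exception was Ap1m1, the gene nearest to Klf2 at 61.7 kb, with 41.0% in +/+ XistdeltaA/+ and 37.6% in +/+ Xist1lox/+; the next of them, Fam32a at 95.3 kb, had 1.36% and 2.99%. An effect of Smchd1 genotype on Klf2 or Zfp42 and the allele carried there cannot be told apart. Around Klf4 the window median was 0.306% in +/+ XistdeltaA/+, with an upper quartile of 35.8%, and 46.8% to 50.3% in the other libraries, and the nearest gene with reads, Ikbkap at 1217 kb, was at 0% in that library and at 51.3% to 54.4% elsewhere. The +/+ XistdeltaA/+ library was also the lowest in Klf4. A link between this level and the allele carried was not tested, and Klf4 had 0 allele-assigned reads. Around Klf5 no other gene of the window had 20 reads, and the nearest gene, Klf12 at 557 kb, was at 28.3% to 48.2% in all libraries. The window of Nr5a2 was maternal-type alone in +/+ Xist1lox/+, and that of Dppa3 in both Xist1lox/+ libraries. Around Tbx3 both alleles were present in all libraries, with medians of 47.5% to 49.4%. Near Nr0b1 on the X, the 3 other genes of the window had medians of 1.14% and 2.33% in the MD1/MD1 libraries. In the +/+ libraries they were 0.901% and 0.699%, with XistdeltaA/+ first. Outside the window Tmem47, 5094 kb away, had 34.1% and 34.0% with MD1/MD1, and 5.58% and 19.6% with +/+. Pola1 and Pcyt1b, on the other side, had at most 4.34%. Whether the low shares come from the allele carried or from the inactive X was not tested.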

How the data were processed

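Per the labels' protocols, stranded mRNA libraries were prepared from RNA of female mouse EpiSCs, with 1 library for each of 4 combined genotypes. The submitters' processing notes list Cufflinks 2.2.1, Cuffdiff and mm9 without saying what each was used for. Not given in the sources used here are the aligner, the gene models and the strain variants. Per the file headers, the authors deposited FPKM, the count of allele-assigned reads and the fraction of those reads that is paternal. Another 6 columns belong to no sample used here.

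Ratios are of log2(FPKM + 1), which understates changes of low genes. limma 3.58.1 with a trend was fitted to 11471 genes of mean FPKM 1 or more, with Smchd1 genotype and Xist mutation as terms, and p was adjusted by Benjamini-Hochberg with 1 residual degree of freedom. edgeR 4.0.16 on the allele-assigned counts was an alternative. Fisher's exact test compared paternal reads within a pair for genes with at least 20 reads in both libraries. Starts in the table were taken to count from 0 and are printed counted from 1. limma, edgeR and Fisher's test were checked on simulated data. The changes simulated for limma were larger than those of Klf2, Klf4 and Klf5. The reads per gene simulated for Fisher's test were more than any member had. The check therefore does not cover changes or read counts of the members' size. What 1 fragment adds to FPKM in each library was read from steps among values under 0.05 FPKM. Windows of 10 Mb with a median paternal share under 5% are called maternal-type alone. Named genes are the 10 members, and from each gene list those 2-fold different in both pairs or else the 4 highest expressed. Other named genes were chosen after their values were seen. The members and gene lists were chosen with earlier results of these data known. The samples cannot be shown to be separate cultures, so p-values measure the spread between these libraries.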

Additional observations from a re-analysis of the deposited data

Results flagged for a closer look

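Klf4 and Klf5 had MD1/MD1 over +/+ ratios of opposite sign in the XistdeltaA/+ and Xist1lox/+ pairs, and the log2 ratios differed by 0.48 for Klf4 and by 1.44 for Klf5. With 1 library per combined genotype these differences were not tested. The medians of 5 gene lists were of opposite sign as well, also not tested. XistdeltaA/+ minus Xist1lox/+, they differed by -0.32 for the further naive genes, -0.49 for germ cell genes and 3.42 for macrophage genes. For trophoblast genes they differed by 0.83 and for neural genes by 0.95. In that order the medians rest on 8, 5, 11, 5 and 2 genes. Those of the Xist1lox/+ pair were small, at 0.15, 0.039, -0.092, -0.10 and -0.078.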

How the results depend on the processing

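For Klf2, Klf4 and Klf5 in both comparisons, 56 of 60 alternative values kept the direction and the side of the threshold, and 0 members passed under any of them, with adjusted p from 0.0628 to 1. The 4 others reversed in fits that left out 1 library and kept 1 term, where the lone library of an arm is assumed to vary like the others. For Smchd1 genotype, Klf2 turned to 0.15 without +/+ Xist1lox/+ and Klf4 to -0.087 without +/+ XistdeltaA/+. For the Xist mutation, Klf5 turned to -0.56 without +/+ XistdeltaA/+ and to -0.094 without +/+ Xist1lox/+. The cause was not tested. The count of 4 genes for Smchd1 genotype was 0 with limma without a filter on low FPKM (943 at an unadjusted p under 0.05) and 5 with edgeR. Leaving out a library, which also drops the other term, gave 9 to 24 genes (9 without MD1/MD1 XistdeltaA/+, 14 without +/+ XistdeltaA/+, 11 without MD1/MD1 Xist1lox/+ and 24 without +/+ Xist1lox/+). The count of 0 for the Xist mutation became 0 to 891, with 891 without MD1/MD1 XistdeltaA/+ and 322 without +/+ XistdeltaA/+. With a pseudocount of 0.1, genes 2-fold different numbered 1004 in place of 657 in the XistdeltaA/+ pair and 193 in place of 94 in the Xist1lox/+ pair. Genes that passed the read test were 3780 and 3767, and among X-linked genes alone 170 and 156, since fewer genes were tested. The labels give no replicate numbers. The model holds the Xist background as a term and so compares MD1/MD1 with +/+ within pairs; without that term 6 genes passed for Smchd1 genotype in place of 4. Without the filter 0 of the 10 members passed limma, with adjusted p from 0.974 to 1 for Smchd1 genotype and from 0.971 to 1 for the Xist mutation. Nr0b1, Nr5a2 and Tbx3 rest on few reads.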

Other observations

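Genes of other early lineages were measured beside the naive members. Only those with a mean of at least 1 FPKM were tested with limma, which excludes all 6 of the 2-cell-like genes. Of those tested 0 passed in either comparison, where 0.0349% of all genes tested passed for Smchd1 genotype and 0.0% for the Xist mutation. Of 6 genes of the 2-cell-like state in the table, 5, among them Zscan4c, Zscan4d and Zfp352, were listed at 0 in every library, and Usp17la did not exceed 0.196 FPKM. Of 10 germ cell genes 5 had a mean of at least 1 FPKM, and 0 were 2-fold different in a pair. Among all genes tested 5.73% were with XistdeltaA/+ and 0.819% with Xist1lox/+. Kit, a receptor gene of germ cells, was at 7.24 FPKM in MD1/MD1 XistdeltaA/+ against 10.3 in +/+ XistdeltaA/+, and at 5.96 in MD1/MD1 Xist1lox/+ against 3.59 in +/+ Xist1lox/+. In the same pairs Prdm1, a regulator of germ cell fate, was at 1.63 against 2.39 and at 1.76 against 1.45, and Tfap2c, another, at 1.51 against 3.02 and at 1.14 against 1.45. Tex19.1, a germline gene, was at 1.51 against 0.804 and at 1.53 against 1.96.

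Of 11 trophoblast genes 5 had a mean of at least 1 FPKM. Of these 1 was 2-fold higher in MD1/MD1 with XistdeltaA/+, as were 3.91% of all genes tested. Another 1 was 2-fold lower with Xist1lox/+, as were 0.375%. The first, Hand1, a factor of trophoblast and mesoderm, was named after its values were seen and was at 5.19 against 0.372 FPKM and at 0.189 against 0.277. The second, the keratin gene Krt7, was at 5.34 against 2.55 and at 0.424 against 3.53. Eomes, a T-box gene, was at 1.89 against 1.78 and at 1.69 against 2.203. Krt18, another keratin gene, was at 305 against 415 FPKM in the XistdeltaA/+ pair and at 227 against 210.4 in the Xist1lox/+ pair, MD1/MD1 first, and Krt8, its partner, at 255 against 153 and at 158 against 162. Of 10 primitive endoderm genes 2 had that mean, Dab2 and Pdgfra, of which Pdgfra is also in the fibroblast list. Dab2, an endocytic adaptor gene, was at 8.08 against 7.60 FPKM and at 6.20 against 5.72 in the same pairs. Pdgfra, a growth factor receptor gene, was at 2.40 against 0.5003 FPKM and at 0.521 against 0.593, and Foxa2 and Lama1 stayed under 0.757 FPKM in every library. Of 6 neural genes 2 had a mean of at least 1 FPKM: Nes, an intermediate filament gene, at 47.9 against 28.0 and at 32.3 against 30.7, and Tubb3, a tubulin gene, at 31.5 against 15.3 and at 31.0 against 36.4. Sox1 and Pax6 were lower, with 1.77 FPKM of Sox1 in +/+ Xist1lox/+ as the highest value. S100a4, Fn1, Col1a1 and Col1a2 led the fibroblast list, at 200, 97.1, 30.7 and 26.7 FPKM in MD1/MD1 XistdeltaA/+ against 6.90, 36.9, 9.31 and 6.34 in +/+ XistdeltaA/+.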
